A study of Homo sapiens with 6 samples.

Results

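The genes described here are 9 of the 58884 genes listed in the expression table: the matrix metalloproteinases MMP1, MMP2, MMP3 and MMP14, the tissue inhibitors of metalloproteinases TIMP1, TIMP2 and TIMP3, and the plasminogen activators PLAU and PLAT. They were chosen by name and by function, and the rule uses no measured value. Their mRNA levels were measured by RNA-seq in an immortalized line of human ventricular cardiomyocytes, with 3 libraries of cells given negative control siRNA (NC) and 3 libraries of cells given siRNA against CIRBP (SiCIRBP). CIRBP is the cold-inducible RNA-binding protein. The line is AC16 in the study's text but T0519 in the labels, and both groups were grown in the same serum-containing Prigrow I medium with no further treatment given in the labels. All 6 libraries come from 1 cell line in culture, so they hold no tissue and no other cell types by design. Nothing in the labels says that the libraries of a group came from separate cultures, and p-values then measure only the spread between these libraries, which may be technical.

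Matrix metalloproteinases are zinc-dependent enzymes that cleave collagens and other proteins of the extracellular matrix, and they are made as inactive precursors. TIMPs are small secreted proteins that block the active site of metalloproteinases, and TIMP2 also takes part with the membrane-bound MMP14 in the activation of pro-MMP2 at the cell surface. PLAU (urokinase) and PLAT (tissue plasminogen activator) cut plasminogen into plasmin, a broad protease that degrades fibrin and can activate several metalloproteinase precursors, and in the heart this system is known for its part in matrix turnover and fibrosis after injury.

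The libraries held between 25726259 and 29919566 estimated counts. Values per library are given as CPM, which are counts scaled to library size by the TMM method of edgeR, when a gene is compared between libraries, and as TPM, which also divides by transcript length, when different genes are compared. CIRBP, the targeted gene, was at 85.7 to 90.9 CPM in the NC libraries and at 54.7, 24.3 and 46.2 CPM in SiCIRBP_1, SiCIRBP_2 and SiCIRBP_3 (-0.81 on the log2 scale over 4 libraries, edgeR, adjusted p = 0.00828). Over all 6 libraries it was -1.07, which did not pass in edgeR (adjusted p = 0.103) and passed in DESeq2 (adjusted p = 0.00323), with every SiCIRBP library below every NC library. In TPM CIRBP was at 133 to 149 in the NC libraries and at 62.1, 22.5 and 57.75 in SiCIRBP_1, SiCIRBP_2 and SiCIRBP_3. Its difference in log2(TPM + 1) over 4 libraries was larger than in counts, at -1.22 (limma). The study's own test left out NC_1 and SiCIRBP_2 on the grounds of how the libraries related to each other, so the differences of the 9 genes are given over the remaining 4 libraries and over all 6. SiCIRBP_2 stood apart in 12 interferon-stimulated genes, whose summed level was 6335 TPM there and 303 to 1182 TPM in the other libraries. Of 10 cardiomyocyte markers, MYH6, RYR2 and MYL2 had no count in any library and ACTN2 was at 7.86 to 15.9 TPM. The summed level of that list was 15.3 to 26.6 TPM, so most defining markers of the labelled cell type were absent or low. In contrast, 10 fibroblast markers summed to 4171 to 5990 TPM. Most of that sum was VIM, at 2724 to 3663 TPM, and the list ranged down to FAP at 1.75 to 3.16 TPM.

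PLAU was the most abundant of the genes in every library, and MMP3 was not detected in any. In the NC libraries the levels in TPM were, as mean ± SD over 3 libraries, 906 ± 77.9 for PLAU, 420 ± 59.8 for PLAT, 399 ± 30.7 for TIMP2, 256 ± 15.5 for TIMP1, 60.5 ± 3.40 for MMP14, 6.87 ± 0.919 for MMP2 and 0.477 ± 0.0586 for TIMP3. The NC values of PLAT, from 351 to 457 TPM, and of TIMP2, from 364 to 423 TPM, overlapped, so these neighbours in the order did not differ beyond their spread. All other neighbours among the detected genes were separated in the NC libraries. By mean TPM over all 6 libraries PLAU ranked 195 among the 58884 genes, TIMP2 349, PLAT 450 and TIMP1 546, while MMP14 ranked 2667 and MMP2 8728. The levels therefore spanned from abundant mRNAs of secreted activators and inhibitors to MMP mRNAs at or near the limit of detection.

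**Figure D1:**
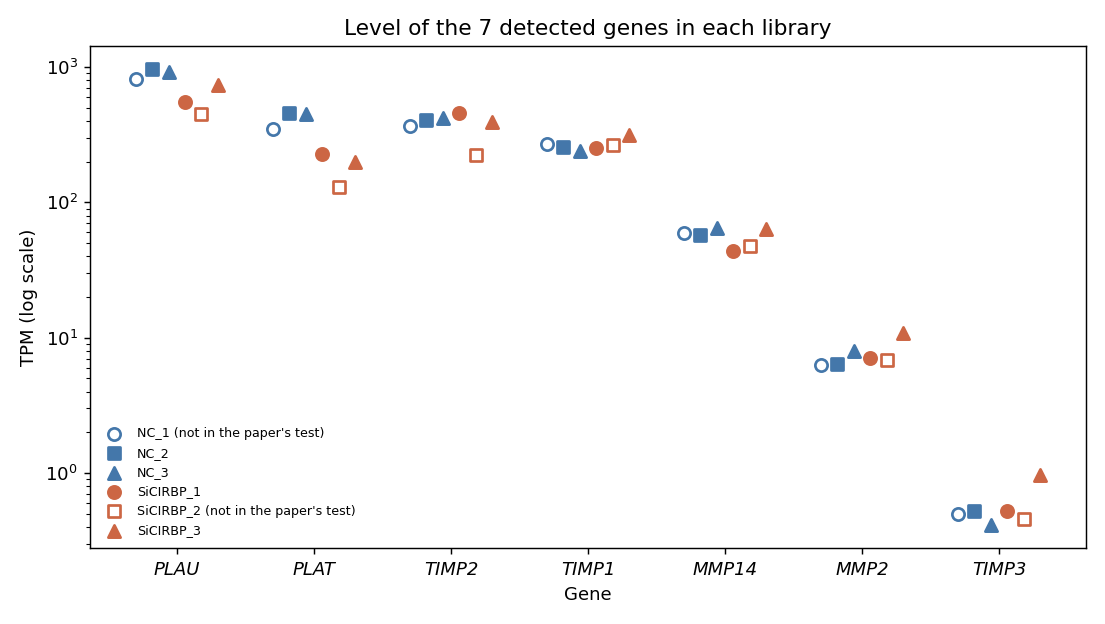
Level of the 7 detected genes in each library, in TPM on a log axis, ordered by mean level, with filled symbols for the libraries of the study's test and open symbols for NC_1 and SiCIRBP_2. PLAU lies at 450 to 973 TPM, TIMP3 at 0.41 to 0.96 TPM, and the SiCIRBP symbols lie below the NC symbols for PLAT and PLAU.

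For 4 of the 9 genes a promoter window was held in the RefSeq table used (build GRCh38.p14), with 2 windows for PLAU. From each of these windows 30 bases upstream of the start are shown. The 250 bases before each start were searched on both strands for the GC box GGGCGG, the AP-1 site TGAGTCA and the TATA box TATAAA. Capitals mark the GC box on either strand, and all 5 stretches are read on the plus strand. Each stretch is the one with the most GC boxes before any exon of the gene itself in its window. The stretches were thus chosen for this motif, and they end 6 to 137 bases before the start.
PLAU, chr10:73911074-73911103: gagggagGGGCGGcgccgGGGCGGgccctg
PLAU, upstream start, chr10:73910575-73910604: tggttgtgttggtgatatctggggactgcc
MMP14, chr14:22836519-22836548: GGGCGGggacggaggagaggctgtgggaga
TIMP3, chr22:32801539-32801568: GGGCGGccCCGCCCcgttaccccttgcccc
TIMP1, chrX:47582283-47582312: gtatctcctttcgtcggcCCGCCCcttggc
The window of the PLAU start nearer to these GC boxes held 3 of them and that of its upstream start held 0, while the windows of MMP14, TIMP1 and TIMP3 held 1, 2 and 5. A GC box was found in 42.6% of all 35116 windows of the table, the AP-1 letters in 4.20% and the TATA letters in 10.7%, and the last 2 motifs were absent from all 5 windows. Both PLAU windows hold exonic bases of another gene, C10orf55. They also lie inside the span of PLAU in GENCODE, chr10:73909177-73917497, so they are upstream of the RefSeq starts only. These matches describe letters only, and MMP1, MMP2, MMP3, TIMP2 and PLAT had no window in the table.

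PLAT was the only one of the 9 genes that passed the threshold in edgeR over the 4 libraries of the study's test. Its mRNA, from a gene at chr8:42175233-42207724 on the minus strand, was at 620, 814 and 780 CPM in NC_1, NC_2 and NC_3 and at 428, 278 and 375 CPM in SiCIRBP_1, SiCIRBP_2 and SiCIRBP_3. Every SiCIRBP library lay below every NC library. Over the 4 libraries PLAT fell by 0.99 on the log2 scale (SE 0.09, 95% interval -1.20 to -0.77, edgeR quasi-likelihood test, adjusted p = 0.00465), to 0.505 of the NC level. Over all 6 libraries the estimate, as for all genes the log2 fold change of SiCIRBP over NC, was -1.03 (SE 0.18, 95% interval -1.45 to -0.61), with an unadjusted p of 0.000487 in edgeR and an adjusted p of 0.0869. The size of the difference was thus similar, but PLAT no longer passed in edgeR, where 0 of 15217 genes (0%) had an adjusted p under 0.05, although 3603 had an unadjusted p under 0.05. DESeq2 over the same 6 libraries gave -1.03 with an adjusted p of 8.21e-05. An exact two-sided permutation test of log2(CPM + 1) gave a difference of -1.04 and p = 0.1, the smallest value that 3 against 3 libraries allow.

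The 3 SiCIRBP libraries had the same order for PLAT and CIRBP, with SiCIRBP_1 highest in both (428 and 54.7 CPM) and SiCIRBP_2 lowest in both (278 and 24.3 CPM). So few libraries often share an order without any link, and the share of all genes with this order was not counted. PLAU, at 918, 829 and 1221 CPM in SiCIRBP_1, SiCIRBP_2 and SiCIRBP_3, did not have it. TIMP2, at 1154, 633 and 989 CPM in the same libraries, had it too, although its groups overlapped. The order was thus not particular to PLAT. Without SiCIRBP_2, the library with the high interferon-stimulated genes, the PLAT estimate over the other 5 libraries was -0.88 (edgeR, adjusted p = 0.0190). It was -0.96 without NC_2, with an adjusted p of 0.442 in edgeR, so the adjusted p over 6 libraries depended strongly on which library was left out while the estimate stayed between -1.17 and -0.88. Within the NC group, NC_1 was the lowest for PLAT, at 0.24 below the group mean of log2(CPM + 1), and it is the NC library that the study left out.

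PLAU, which encodes urokinase and lies at chr10:73909177-73917497 on the plus strand, was also lower in each SiCIRBP library, by a smaller amount. Its level was 1264, 1539 and 1410 CPM in NC_1, NC_2 and NC_3, and 918, 829 and 1221 CPM in SiCIRBP_1, SiCIRBP_2 and SiCIRBP_3. The groups did not overlap, but SiCIRBP_3 lay close to NC_1. Over 4 libraries the estimate was -0.46 (SE 0.14, 95% interval -0.79 to -0.13), which missed the threshold in edgeR (adjusted p = 0.0593) and passed it in DESeq2 (adjusted p = 0.00432). The value over 6 libraries was -0.51 (SE 0.16, adjusted p = 0.138 in edgeR and 0.0648 in DESeq2). Single libraries moved it, to -0.69 without SiCIRBP_3 and to -0.28 without SiCIRBP_1, where a lone SiCIRBP library is assumed to vary as the others do. The exact permutation test gave -0.52 and p = 0.1.

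PLAU overlaps a neighbour. C10orf55 lies on the opposite strand and shares 916 exonic bases with PLAU, and 24.1% of the 31-base words of PLAU transcripts occur in those of C10orf55. Whether reads were counted by strand is not given in the sources used here, so reads of this stretch cannot be told apart. C10orf55 was listed at 8.17 to 16.6 CPM, far under the level of PLAU, and its own estimate over 4 libraries was -0.11 (edgeR, adjusted p = 0.737), with -0.38 over 6 (edgeR, adjusted p = 0.355). In TPM, too, the PLAU and PLAT values of the groups did not overlap, and the length implied by counts and TPM differed between groups by 0.00 for PLAU and 0.01 for PLAT on the log2 scale. For comparison, CIRBP differed by 0.39, and 0.948% of 11813 genes differed by more than 0.5 on that scale.

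**Figure D2:**
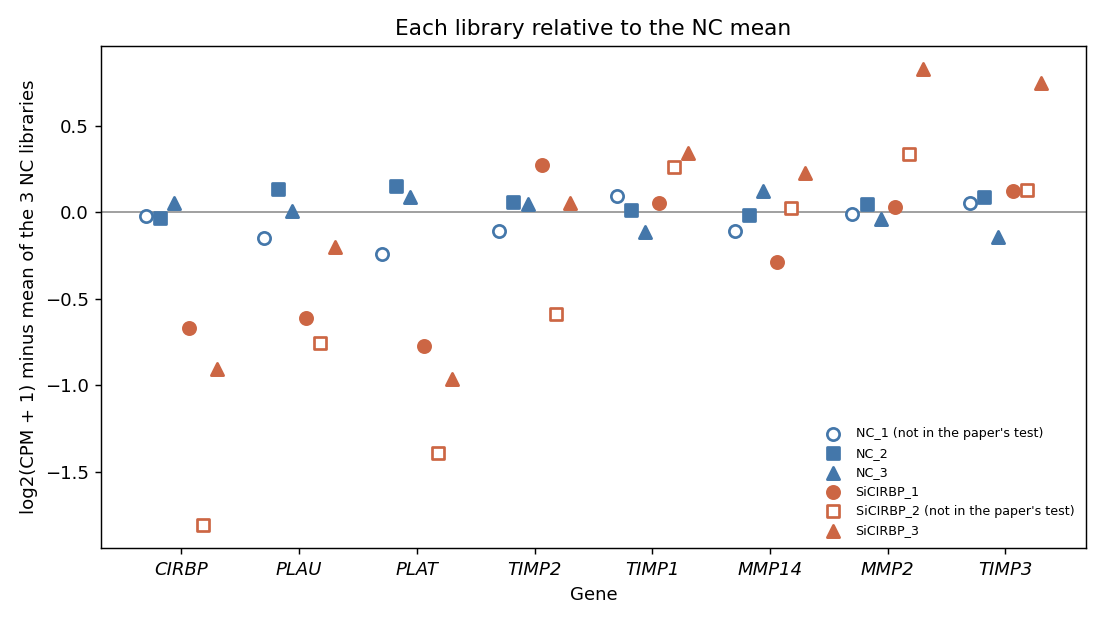
Each library's log2(CPM + 1) minus the mean of the 3 NC libraries, for each of the detected genes, with the same symbols as in the plot of levels. For PLAT the SiCIRBP libraries lie between -1.39 and -0.77, for PLAU between -0.75 and -0.20, and for TIMP2 SiCIRBP_2 lies at -0.59 and SiCIRBP_1 at 0.27.

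TIMP2, the most abundant inhibitor, showed no shared direction among the SiCIRBP libraries. The gene lies at chr17:78852977-78925387 on the minus strand, and 5.96% of its 31-base words are shared with AC022966.1 on the opposite strand, whose reads cannot be told apart either. TIMP2 was at 884, 992 and 988 CPM in NC_1, NC_2 and NC_3 and at 1154, 633 and 989 CPM in SiCIRBP_1, SiCIRBP_2 and SiCIRBP_3. SiCIRBP_1 was thus the highest and SiCIRBP_2 the lowest of all 6 libraries. The estimate was 0.11 over 4 libraries (95% interval -0.11 to 0.34, edgeR, adjusted p = 0.419) and -0.05 over 6 (adjusted p = 0.906 in edgeR). Without SiCIRBP_3 the 3 remaining libraries, with a lone SiCIRBP library among them, gave 0.22.

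TIMP1, a broadly acting secreted inhibitor encoded at chrX:47582313-47586789 on the plus strand, was at 109, 103 and 94.5 CPM in NC_1, NC_2 and NC_3. The SiCIRBP libraries had 106, 123 and 130 CPM in the order SiCIRBP_1, SiCIRBP_2 and SiCIRBP_3. The groups overlapped through SiCIRBP_1. The estimate was 0.26 over 4 libraries (SE 0.12, 95% interval -0.02 to 0.54, edgeR, adjusted p = 0.163) and 0.23 over 6 (edgeR, adjusted p = 0.298). In the fit of 3 libraries that left out SiCIRBP_1, with a lone SiCIRBP library left, it was 0.39.

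TIMP3, an inhibitor that binds to the matrix, was low, with 48, 45 and 41 counts in the NC libraries and 53, 47 and 94 counts in SiCIRBP_1, SiCIRBP_2 and SiCIRBP_3. The gene lies at chr22:32801701-32863043 on the plus strand. In CPM the SiCIRBP libraries, at 1.81, 1.83 and 3.35, did not overlap with the NC libraries, at 1.34 to 1.75, but in TPM the groups overlapped. The exact Poisson 95% interval of SiCIRBP_1, from 1.36 to 2.37 CPM, contained the value of NC_2, so that the gap between those libraries was not detectable at this depth, and such intervals cover counting error only. The estimate was 0.74 over 4 libraries (SE 0.37, 95% interval -0.15 to 1.63, edgeR, adjusted p = 0.198) and 0.55 over 6 (edgeR, adjusted p = 0.325). It rested on SiCIRBP_3: without that library it was 0.23, and without SiCIRBP_1 it was 1.11, each with a lone SiCIRBP library left.

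MMP14, the membrane-type metalloproteinase at chr14:22836557-22849027 on the plus strand, was the most abundant of the 4 metalloproteinases. It was at 99.6, 106 and 117 CPM in the NC libraries and at 87.8, 109 and 126 CPM in SiCIRBP_1, SiCIRBP_2 and SiCIRBP_3. In CPM SiCIRBP_1 was the lowest and SiCIRBP_3 the highest of all 6 libraries. In TPM SiCIRBP_1 and SiCIRBP_2, at 43.8 and 48.0, lay below every NC library, at 57.7 to 64.3, and SiCIRBP_3, at 63.2, lay among them. The estimate was -0.06 over 4 libraries (95% interval -0.46 to 0.33, edgeR, adjusted p = 0.817) and 0.00 over 6. Leaving out SiCIRBP_3 gave -0.35 and leaving out SiCIRBP_1 gave 0.17, each with a lone SiCIRBP library left, so that the direction depended on the library.

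MMP2, the gelatinase encoded at chr16:55389700-55506691 on the plus strand, was at 15.4, 16.1 and 15.1 CPM in the NC libraries and at 15.9, 19.9 and 28.4 CPM in SiCIRBP_1, SiCIRBP_2 and SiCIRBP_3. The NC libraries were close together, SiCIRBP_1 lay among them, and SiCIRBP_3 stood highest. The estimate was 0.51 over 4 libraries (SE 0.26, 95% interval -0.10 to 1.12, edgeR, adjusted p = 0.201). It became 0.03 without SiCIRBP_3 and 0.86 without SiCIRBP_1, in fits that leave a lone SiCIRBP library. Over 6 libraries it was 0.46 (edgeR, adjusted p = 0.232).

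The interstitial collagenase MMP1, at chr11:102789920-102798160 on the minus strand, and the stromelysin MMP3, at chr11:102835801-102843803 on the minus strand, did not pass the expression filter. MMP1 had 1, 0 and 2 counts in the NC libraries and 1, 5 and 1 counts in SiCIRBP_1, SiCIRBP_2 and SiCIRBP_3, which is 10 counts over all 6 libraries. MMP3 had 0 counts in every library, and a count of 0 allows up to 3 counts, which is 0.0983 to 0.117 CPM. Whether either gene differed between the groups was not detectable at this depth.

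**Figure D3:**
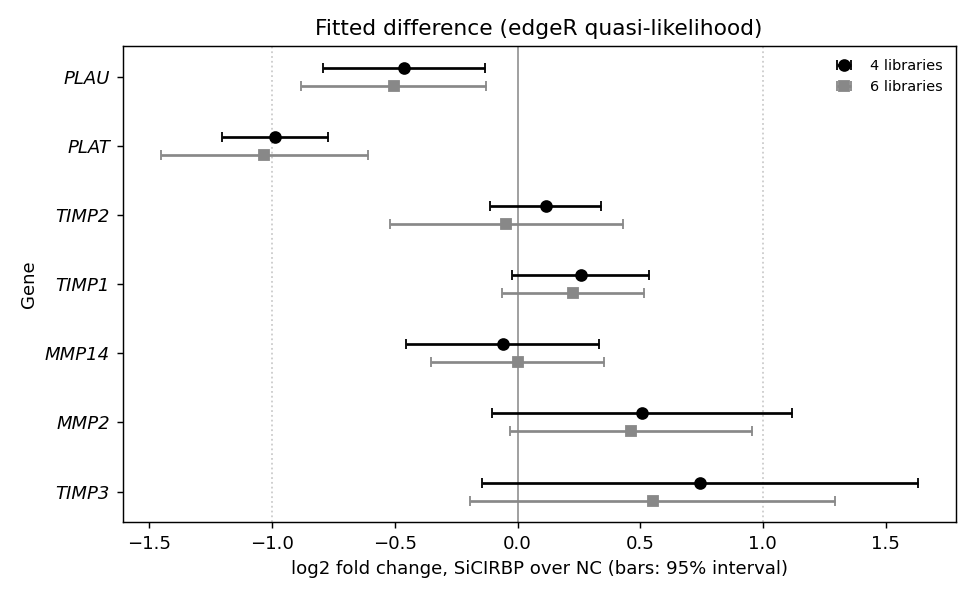
Fitted log2 fold change of SiCIRBP over NC for the 7 genes that passed the filter, with 95% intervals, from edgeR over 4 libraries and over all 6. The PLAT and PLAU intervals lie below 0 in both fits, and the intervals of the other 5 genes contain 0.

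Counted together, 7 of the 9 genes passed the filter, and at an adjusted p under 0.05 in edgeR over 4 libraries 1 of them was lower (PLAT) and 0 were higher. Among all 15421 genes tested, 9.76% were lower and 9.62% higher by that rule. When a change of at least 2-fold was also required, 0 of the 7 were called in either direction, PLAT falling just short, against 1.8% of all genes lower and 1.82% higher. DESeq2 over 6 libraries called PLAT lower and none of the other 6 genes tested, where 5.04% of all genes were lower and 4.48% higher at an adjusted p under 0.05. By levels that do not overlap in CPM, 2 genes were lower (PLAT and PLAU) and 1 higher (TIMP3), against 16.6% and 16.2% of all genes. The exact permutation test, run on 8 genes, gave p = 0.1 for these 3 genes, p = 0.2 for MMP2 and TIMP1, and at least 0.5 for MMP1, MMP14 and TIMP2. Of the 7 estimates over 4 libraries, 3 were below 0 and 4 above, with a median of 0.11 beside -0.00 over all genes.

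PLAU and PLAT made up most of the summed level of the 9 genes in each library. The sum of PLAU and PLAT was 1172, 1430 and 1378 TPM in NC_1, NC_2 and NC_3 and 783, 581 and 942 TPM in SiCIRBP_1, SiCIRBP_2 and SiCIRBP_3, without overlap. The summed TIMPs were 636 to 667 TPM in the NC libraries, and 708, 487 and 706 TPM in the SiCIRBP libraries in the same order. The summed metalloproteinases were 64.1 to 72.3 TPM and 50.9 to 74.1 TPM. Both of the latter sums overlapped or lay on either side of the NC range. PLAT contributed 18.7% to 21.4% of the 9-gene sum in the NC libraries and 11.7% to 14.9% in the SiCIRBP libraries.

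**Figure D4:**
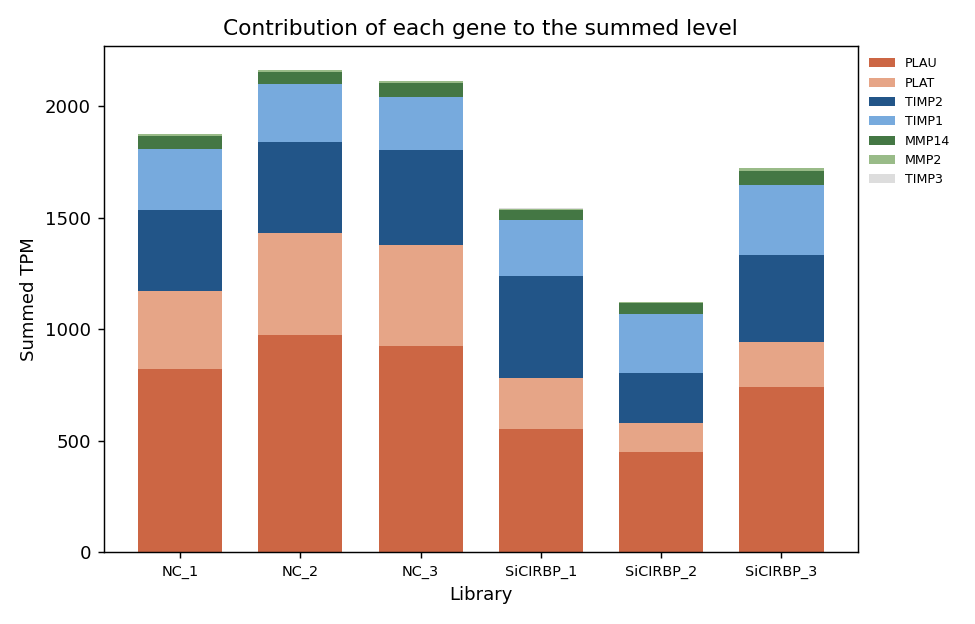
Summed TPM of the 9 genes in each library, as stacked bars from 0 with 1 colour per gene. The bars reach 1874 to 2161 TPM in the NC libraries and 1124 to 1722 TPM in the SiCIRBP libraries, and PLAU is the largest piece of each bar.

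The order of PLAT among the inhibitors differed between the groups. In each NC library PLAT was above TIMP1, and in each SiCIRBP library it was below both TIMP1 and TIMP2, for example at 229 TPM in SiCIRBP_1 where TIMP1 was at 251 and TIMP2 at 457 TPM. The ratio of summed metalloproteinases to summed TIMPs was 0.104, 0.0960 and 0.109 in the NC libraries and 0.0720, 0.113 and 0.105 in the SiCIRBP libraries, so the groups overlapped. The ratio of PLAU to PLAT, chosen after the values were seen, was 2.05 to 2.34 in the NC libraries and 2.42, 3.43 and 3.69 in the SiCIRBP libraries.

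The other genes of pericellular proteolysis were taken from 6 lists with 64 genes, of which 63 were in the table and 43 were tested over 4 libraries. At an adjusted p under 0.05 in edgeR, 4 were lower and 3 higher, beside the 9.76% and 9.62% of all genes given above, and the median of the 43 estimates was 0.04. Only ADAM8 also passed 2-fold. Over all 6 libraries 0 of 40 had an adjusted p under 0.05 in edgeR, whereas in DESeq2 1 was lower (ADAMTS2, short of 2-fold) and 1 higher (ADAM8).

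The activators act on plasminogen and are blocked by serpins. In these lists the estimates are log2 fold changes over 4 libraries. The serpin SERPINE2, an inhibitor of both activators, was at 0.37 (edgeR, adjusted p = 0.139) and did not pass. Among the plasminogen receptors, S100A10, the partner of annexin A2, rose by 0.52 (edgeR, adjusted p = 0.0142). ANXA2 itself was at 0.16 (edgeR, adjusted p = 0.221) and ENO1 at -0.05 (edgeR, adjusted p = 0.703). PLAUR, the urokinase receptor, and PLG, plasminogen, were singled out for their role after the values were seen. PLAUR was at 0.04 over 4 libraries (edgeR, adjusted p = 0.928) and at 0.47 over 6 (edgeR, adjusted p = 0.354), with 19.0 to 23.7 CPM in the NC libraries and 17.2, 42.9 and 30.04 CPM in SiCIRBP_1, SiCIRBP_2 and SiCIRBP_3, and PLG had 0 to 4 counts in any library.

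Among 19 other metalloproteinases 9 were tested, and only the membrane-type MMP16 passed, where it fell by 0.68 (edgeR, adjusted p = 0.0294). MMP17, the most abundant of them, was at -0.03 (edgeR, adjusted p = 0.909) and, over 6 libraries, at 0.03. None of 8 tested inhibitors and activators of metalloproteinases passed, with FURIN, a convertase of their precursors, at 0.14 (edgeR, adjusted p = 0.510) and BSG, an inducer of metalloproteinases, at 0.21 (edgeR, adjusted p = 0.0940).

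Of 12 tested ADAM and ADAMTS proteinases, ADAM17, the main sheddase of TNF, fell by 0.50 (edgeR, adjusted p = 0.0188), and ADAMTS2, which trims procollagen, fell by 0.62 (edgeR, adjusted p = 0.00808). ADAM8 rose by 2.42 (edgeR, adjusted p = 0.0236) from low counts, 17, 4 and 9 in the NC libraries and 28, 30 and 43 in SiCIRBP_1, SiCIRBP_2 and SiCIRBP_3, and its TPM values overlapped. ADAM10, the most abundant of this list, was at 0.08 (edgeR, adjusted p = 0.530) and, over 6 libraries, at -0.16 (edgeR, adjusted p = 0.667). Among 6 cathepsins, which act in lysosomes and outside cells, CTSL fell by 0.36 (edgeR, adjusted p = 0.0373) and CTSB rose by 0.34 (edgeR, adjusted p = 0.0431), while CTSD was at 0.20 (edgeR, adjusted p = 0.109). None of these 7 genes passed in edgeR over all 6 libraries.

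**Figure D5:**
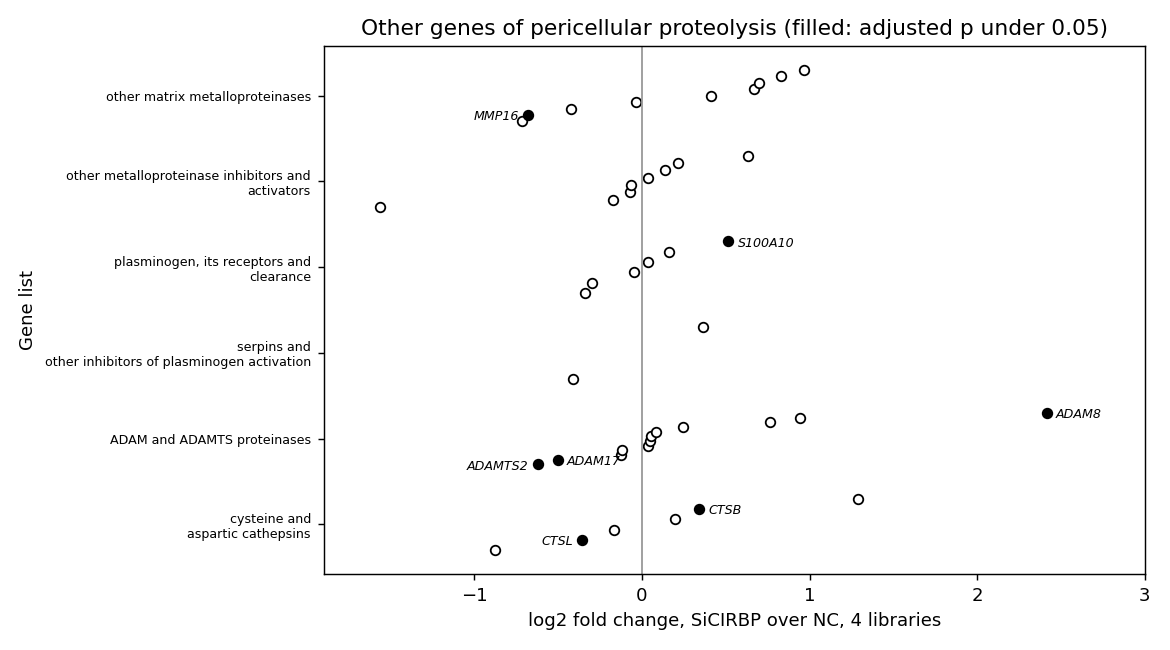
Log2 fold change over 4 libraries of the 43 tested genes of the 6 lists, 1 point per gene, with filled points for an adjusted p under 0.05 in edgeR. The filled points are MMP16, ADAM17, ADAMTS2 and CTSL on the lower side and S100A10, CTSB and ADAM8 on the higher side.

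Markers of several cell types were measured beside the PLAT difference. Among 10 fibroblast markers tested over the same 4 libraries, COL1A1, which encodes a collagen chain, rose by 0.87 (edgeR, adjusted p = 0.0332) and PDGFRA fell by 0.38 (edgeR, adjusted p = 0.0297), with the other 8 not past the threshold. Over all 6 libraries COL1A1 was at 0.41 (edgeR, adjusted p = 0.491), with SiCIRBP_2 below every NC library, and PDGFRA was at -0.57 (edgeR, adjusted p = 0.140). COL1A2, named after the values were seen, was at 0.86 over 4 libraries (edgeR, adjusted p = 0.0971). Over all 6 it was at 0.95, which did not pass in edgeR (adjusted p = 0.114) and passed in DESeq2 (adjusted p = 0.00967). The 10 markers summed to 4342 to 4621 TPM in the NC libraries and to 4171 to 5990 TPM in the SiCIRBP libraries.

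Of 3 cardiomyocyte markers tested, NKX2-5, a transcription factor gene, fell by 1.24 over 4 libraries (edgeR, adjusted p = 0.0160). It was at -0.36 over 6 (edgeR, adjusted p = 0.639), and SiCIRBP_2, at 9.48 CPM, lay above every NC library. TNNI3 was at 2.44 (edgeR, adjusted p = 0.0719) from 1 to 30 counts, and ACTN2 at -0.42 (edgeR, adjusted p = 0.0981), so these markers did not share a direction. The list summed to 20.1 to 26.6 TPM in the NC libraries and to 15.3 to 18.2 TPM in the SiCIRBP libraries.

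Of 4 endothelial markers tested, VWF rose by 2.56 over 4 libraries (edgeR, adjusted p = 0.0369) from 1 to 16 counts in any library. TEK was at -0.47 (edgeR, adjusted p = 0.230), KDR at 0.16 (edgeR, adjusted p = 0.468) and ERG at 0.80 (edgeR, adjusted p = 0.203). These markers thus did not share a direction. The 6 genes of that list summed to 12.99 to 16.1 TPM in the NC libraries and 9.66 to 15.2 TPM in the SiCIRBP libraries. Of 2 macrophage markers tested, CD68 rose by 0.64 (edgeR, adjusted p = 0.0437), from 7.70 to 8.20 CPM in the NC libraries to 10.7 to 13.7 CPM in the SiCIRBP libraries. The other tested marker of this list, CD14, was at -0.13 over 4 libraries (edgeR, adjusted p = 0.821) and at -0.51 over 6 (edgeR, adjusted p = 0.376). That list summed to 9.16 to 10.5 TPM and to 11.3 to 13.5 TPM, and its marker CD163 had no count in any library. Over all 6 libraries VWF was at 2.00 (edgeR, adjusted p = 0.108) and CD68 at 0.67, which did not pass in edgeR (adjusted p = 0.103) and passed in DESeq2 (adjusted p = 0.0155). By design the libraries hold 1 cell line, so these levels do not count cells of other types. In bulk RNA, fewer cells with a transcript and less of it per cell cannot be told apart. The part of these markers in the PLAT difference was not tested.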

How the data were processed

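Total RNA of 6 libraries was sequenced, 3 NC and 3 SiCIRBP, with groups and numbers taken from the labels. Per the submitters' processing notes, fastp, HISAT and RSEM were used with the hg38 genome. Versions, the strand setting and the annotation release are not given in the sources used here. The authors deposited an estimated count per gene and library, not normalized and not always whole, and a TPM value, in which the authors scaled by transcript length and library. A further deposited table of the authors' own comparisons (fold changes and p-values) was not used.

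Estimated counts were rounded and tested in edgeR 4.0.16 (R 4.3.3) with TMM, filterByExpr and the quasi-likelihood test on all genes, with Benjamini-Hochberg adjustment over all genes tested. The threshold was an adjusted p of 0.05, and calls also required 2-fold. The 4 libraries of the study's test gave the first value and all 6 the next. Single genes were also compared by exact two-sided permutation in scipy 1.17.1 on log2(CPM + 1), 8 tests in all, unadjusted. Alternatives were DESeq2 1.42.0, limma 3.58.1 on log2(TPM + 1), RLE factors, a block for the replicate number, leaving out each library, no filter, and a filter of at least 10 counts in every library. Tested on simulated data with 200 genes changed by a log2 of 1.5, edgeR recovered 97% over 4 libraries (15421 genes) and 99% over 6 (15217 genes). The simulated spread was fixed at the same value for all genes and was not taken from these libraries. These shares therefore check that the fit runs as intended and do not give its power in these data.

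The genes named are the 9 members, CIRBP, list genes with an adjusted p under 0.05 over 4 libraries and the 2 most abundant of each list. The members and lists were chosen with earlier results of these data known. MRC2, of the plasminogen list, was not used here. A gene of the inhibitor list is not reported here. Gene locations and shared 31-base words come from GENCODE 29 on GRCh38.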

Additional observations from a re-analysis of the deposited data

How the results depend on the processing

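Of 84 alternative values for the 7 tested genes, 64 kept their direction and side of the threshold, 10 passed it where the reported value had not, 2 no longer passed it and 8 changed sign. The 2 that no longer passed were both PLAT over 6 libraries. Some of the 10 came from fits with a lone library in a group, where the p-value rests on the spread of the other group alone. Without the filter on low counts, PLAU (-0.48, edgeR, adjusted p = 9.57e-09) and MMP2 (0.49, edgeR, adjusted p = 0.0129) passed over 4 libraries. Their estimates hardly moved, but the SE of PLAU was 0.08 in place of 0.14 and that of MMP2 0.15 in place of 0.26. Without that filter over all 6 libraries, neither PLAU (edgeR, adjusted p = 0.0677) nor MMP2 (edgeR, adjusted p = 0.284) passed. The count of the 9 genes called over 4 libraries, 0 as reported, was 1 with DESeq2 on all 6 libraries, 1 without the filter on low counts, 1 with limma on log2(TPM + 1), 1 with no minimum fold, and 0 to 2 with a library left out. Over all 6 libraries the count of 0 became 1 with DESeq2 and 1 without the filter. The cause was not tested. PLAT lay close to 2-fold throughout, from -1.09 to -0.90 with a library left out of the 4. The other gene counted without SiCIRBP_1 was TIMP3, at 1.11 with a lone SiCIRBP library left.

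The sign changes were in MMP14 and TIMP2, whose estimates lay near 0. MMP14, at -0.06, was 0.000949 over 6 libraries and 0.00275 with DESeq2 over 6, and lay between -0.349 and 0.168 with a library left out. TIMP2, at 0.11, was -0.0451 over 6 libraries and -0.0441 with DESeq2 over 6, and lay between -0.00781 and 0.217 with a library left out. Those fits leave 1 library in a group, assumed to vary as the others do.

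With the replicate number as a block over 6 libraries, 0 of the 9 genes were called, as without it. PLAT was at -1.05 (edgeR, adjusted p = 0.130), PLAU at -0.52 (edgeR, adjusted p = 0.193) and TIMP2 at -0.0864 under the replicate block. Deviations of libraries with the same number correlated at -0.12, 0.01 and -0.03, so no pairing by number was seen. With deviations taken from the mean of so few libraries, this cannot exclude a shared culture or preparation. Depth limits TIMP3, MMP1 and MMP3, as given with their values.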
